A study of Mus musculus with 8 samples.

Results

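The unconventional myosins and the actin genes of the hair bundle form a set of 40 genes, 23 myosins and 17 actin, bundling, linking and capping genes, of 18193 genes named on the array. Members were chosen by name and not by level. They were every gene symbol that begins with Myo and a digit, Myo7a aside, and 17 listed genes: Actb, Actg1, Ezr, Rdx, Msn, Espn, Fscn1, Fscn2, Pls1, Pls3, Lcp1, Triobp, Eps8, Twf2, Capzb, Diaph1 and Diaph3. They were read from 81 probe sets and 3 control probe sets of Actb, in which the platform annotation named 1 gene alone. All 40 symbols were the same in RefSeq.

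The RNA was that of cochleae from 8 mice of the inbred CBA/CaJ strain, which hears well and is widely used in hearing research. Each mouse gave 1 array, with its ears pooled, and all 8 arrays form 1 group of normal cochlea with no contrast. Every mouse received urethane (300 mg/kg) and was perfused with saline to clear the blood. The soft tissue inside the bony shell was taken, namely the lateral wall ligament, the sensory epithelium and the central core with the nerve, and neither sex nor age is given in the labels.

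Hair cells turn sound into current through stereocilia, which are stiff projections packed with parallel actin filaments. Unconventional myosins walk along these filaments or tether membrane to them, and several carry cargo to the stereocilia tips. Loss of many of these motors, bundlers and linkers causes deafness in mice or people. Most members also act in other cells of the tissue, and in bulk RNA fewer cells of a type and less RNA per cell cannot be told apart.

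The promoter windows of 4 members are shown because their CpG content spans the range found among the members. Each window runs from 250 bases before to 50 bases after a RefSeq transcription start (build GRCm38.p6), 5′ to 3′ on the gene's strand, with every CG dinucleotide in capitals. Myo6 lies at chr9:80164784-80165083 on the plus strand, Myo15 at chr11:60469089-60469388 on the plus strand, Espn at chr4:152152340-152152639 on the minus strand and Actg1 at chr11:120348446-120348745 on the minus strand. For Espn the window with the most CpG among 3 annotated starts is shown.
Myo6: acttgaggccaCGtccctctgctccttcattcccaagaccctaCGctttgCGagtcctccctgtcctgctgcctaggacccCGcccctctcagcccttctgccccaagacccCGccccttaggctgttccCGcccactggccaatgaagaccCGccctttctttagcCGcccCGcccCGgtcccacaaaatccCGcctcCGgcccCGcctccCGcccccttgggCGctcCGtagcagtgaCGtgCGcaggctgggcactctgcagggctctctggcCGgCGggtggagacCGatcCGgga
Myo15: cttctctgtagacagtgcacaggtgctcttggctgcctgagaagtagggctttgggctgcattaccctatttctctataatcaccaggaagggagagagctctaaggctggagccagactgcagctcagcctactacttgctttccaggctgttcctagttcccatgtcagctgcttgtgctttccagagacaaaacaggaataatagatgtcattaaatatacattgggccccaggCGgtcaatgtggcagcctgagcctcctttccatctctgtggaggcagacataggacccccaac
Espn: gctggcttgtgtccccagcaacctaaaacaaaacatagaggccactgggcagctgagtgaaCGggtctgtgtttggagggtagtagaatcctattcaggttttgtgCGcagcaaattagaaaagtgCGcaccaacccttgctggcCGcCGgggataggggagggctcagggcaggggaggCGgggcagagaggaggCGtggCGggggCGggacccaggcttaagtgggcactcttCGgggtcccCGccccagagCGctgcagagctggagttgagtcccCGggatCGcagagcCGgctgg
Actg1: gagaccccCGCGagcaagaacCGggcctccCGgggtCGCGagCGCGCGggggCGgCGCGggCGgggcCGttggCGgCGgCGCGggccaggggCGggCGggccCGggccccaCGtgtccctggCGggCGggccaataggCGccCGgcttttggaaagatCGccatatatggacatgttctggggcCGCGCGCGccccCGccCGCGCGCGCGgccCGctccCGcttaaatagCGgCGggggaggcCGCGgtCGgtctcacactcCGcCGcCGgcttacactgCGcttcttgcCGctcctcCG
The Myo6 window held 22 CpG, the Myo15 window 1, the Espn window 15 and the Actg1 window 50.

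The unit is the MAS5 signal, on an arbitrary scale, and each mean ± SD covers all mice (n = 8). The number of arrays limits the precision, and mouse numbers are names without order. A higher signal of another probe set does not mean more RNA, so levels are set only against the background of the same array. For that background 71 olfactory and vomeronasal receptor genes were used, and the threshold, the 95th percentile of their 80 probe sets, ranged from 37.6 (mouse 8) to 62.1 (mouse 3). A gene, read by its probe set of highest mean signal, was called detected when it exceeded this threshold on all 8 arrays.

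Of the 40 members 30 were detected (75%), against 64.9% of all 18193 genes. Among the actin genes 16 of 17 were detected, and among the myosins 14 of 23. A further 6 members exceeded the threshold on some arrays only, as did 12.8% of all genes. The remaining 4 members, Myo18b, Myo1a, Myo3a and Myo7b, exceeded it on no array, as did 22.3% of all genes. By probe set, 55 of the 81 were detected (67.9%), against 58.5% of all probe sets that name 1 gene. Of the 23 members with several probe sets, 10 had detected and undetected probe sets side by side. Of a hair cell marker list 10 of 15 measured genes were detected (66.7%), a share near that of all genes (64.9%), so this count says little on the tissue label. The hair cell genes Pou4f3, Tmc2, Atoh1 and Cdh23 exceeded the threshold on no array, and the summed signal of the list ranged from 3644 to 4773.

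**Figure D1:**
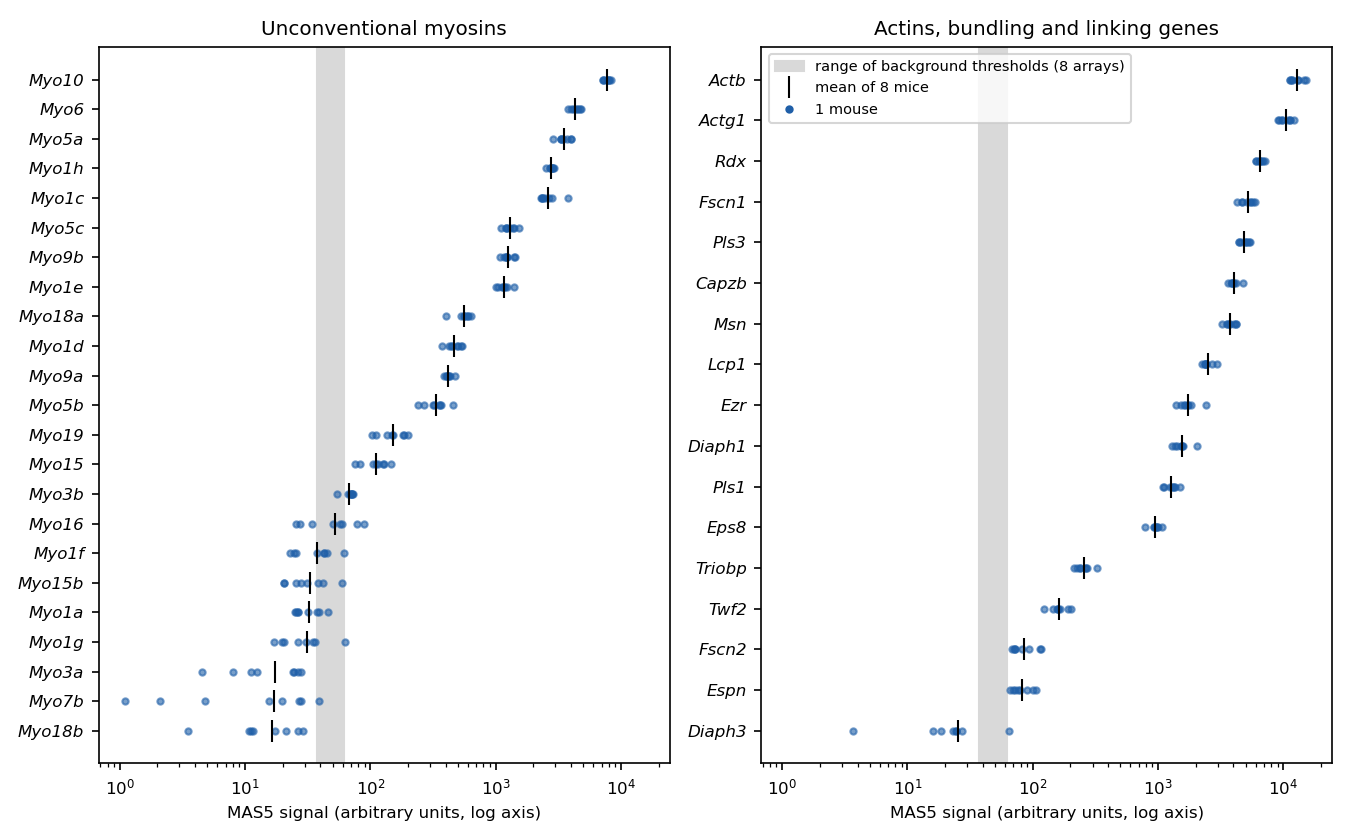
MAS5 signals (log axis) of the 23 myosins and the 17 actin genes, with 1 point per mouse and a bar at the mean of 8 mice; the grey band spans the background thresholds of the 8 arrays, 37.6 to 62.1. Espn, Fscn2 and Myo15 lie just right of the band, and Myo18b, Myo1a, Myo3a and Myo7b lie on or left of it.

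The cytoplasmic actins, which build the stereocilia core and most other filaments, gave bright signals in every mouse. Actb, beta-actin, measured 12752 ± 1499.8, from 11227 in mouse 7 to 15177 in mouse 8. Actg1, gamma-actin, measured 10408 ± 1089, from 9100.3 in mouse 2 to 12090.1 in mouse 3. With the probe sets read, mice 3, 4, 6 and 8 had the 4 highest signals of both genes. The other Actb probe set was highest in mouse 1 (12479) and measured 11247 to 11920 in those 4 mice, and 2 of the 3 Actb control probe sets were also highest in mouse 1 (12321 and 7589). Across mice the actins correlated at r = 0.83 (rho = 0.69), which did not pass after adjustment over 15 member pairs (exact permutation p = 0.0155, adjusted p = 0.116; n = 8). Without mice 3 and 8, the farthest from the median, r was 0.90. These arrays also differed at the top of their scale, since the signal exceeded by 0.5% of probe sets ranged from 8955 in mouse 7 to 11005 in mouse 3. It was 10980.5 in mouse 1, where the probe sets read gave 11757 (Actb) and 9695 (Actg1). It was 9866 in mouse 6, where they gave 13121 and 11243. Its part in the result was not tested.

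Radixin, moesin and ezrin fasten actin filaments to the cell membrane, and all 3 were detected. Rdx, radixin, which sits near the base of stereocilia, measured 6531 ± 389. Msn, moesin, measured 3779 ± 344. Both were lowest in mouse 1, at 6004 for Rdx and 3256 for Msn, and both were high in mice 3, 6 and 8, where Rdx was 6767, 6886 and 7102 and Msn 4037, 4214 and 4205. Rdx and Msn were the pair of members, of 15 tested, whose correlation across mice passed (r = 0.92, exact permutation p = 0.00154, adjusted p = 0.0231; rho = 0.95, adjusted p = 0.0171; n = 8). Without mice 1 and 8 r was 0.84. The pattern was not particular to this pair. Over the 15 brighter detected members, Rdx and Msn among them, the median deviation on the log2 scale was -0.10 in mouse 1. In mice 3, 6 and 8 that median was 0.10, 0.05 and 0.07. The part of this shared pattern in the correlation was not tested. The other bright Rdx probe set was also lowest in mouse 1 (3069.6) but highest in mouse 4 (5189.8). The call was lost under quantile normalization (r = 0.75, adjusted permutation p = 0.24) and when all probe sets of a gene were averaged (r = 0.40, adjusted p = 0.657). It was also lost without mouse 1, 3, 5, 6 or 8, at an adjusted p of at most 0.133 over the 8 omissions. Ezr, ezrin, an epithelial linker, stood apart in mouse 5. Its signal was 1399.5 at the lowest (mouse 8), 1679 at the median and 2401 at the highest (mouse 5), and the 7 other mice lay at or under 1829. Its SD was 0.23 on the log2 scale with all mice and 0.13 without mouse 5. Ezr and Rdx correlated at r = 0.05 over 8 mice and at 0.94 without mice 5 and 8, and the first of these had an adjusted exact permutation p of 0.946 (rho = 0.21).

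**Figure D2:**
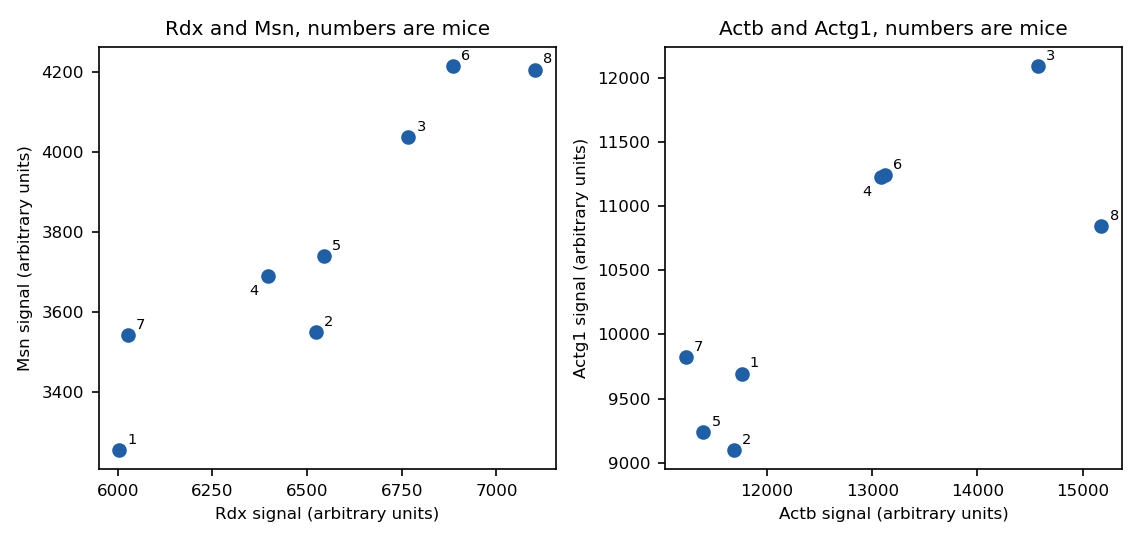
MAS5 signal of Msn against Rdx (left) and of Actg1 against Actb (right), with 1 numbered point per mouse (n = 8). Mouse 1 is lowest for both Rdx (6004) and Msn (3256), and mice 3, 4, 6 and 8 lie highest for the Actb and Actg1 probe sets plotted; the other Actb probe set was highest in mouse 1 (12479).

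The bundling proteins hold the filaments of a stereocilium in parallel. Espn, espin, the bundler mutated in jerker mice, was close to background. Its signals in mice 1 to 8 were 78.7, 101, 69, 107, 71.8, 89.6, 65.7 and 76.6. Mice 2 and 4 were highest, and in mouse 3 the signal of 69 stood beside a threshold of 62.1. Fscn2, the fascin of stereocilia and photoreceptors, was likewise low, from 68.2 (mouse 3) through a median of 76.9 to 115 (mouse 2). Its 2 highest mice were those of Espn, mice 2 (115) and 4 (114). Mouse 4 was also highest for Diaph3, Myo15b, Myo16, Myo3b and Myo7b, which were not detected. The other undetected members, Myo18b, Myo1a, Myo1f, Myo1g and Myo3a, were highest in other mice. Fscn1, the fascin of filopodia and growth cones, measured 5186 ± 594. The plastins differed in their tissue roles and all were detected. Pls1, the plastin of stereocilia and intestinal microvilli, measured 1279.5 ± 131, from 1089 in mouse 5 to 1494 in mouse 7. Pls3, the broadly expressed plastin, measured 4896 ± 389. Lcp1, the plastin of leukocytes, measured 2487 ± 231 and was highest in mouse 3 (2966). Without mouse 3 the SD of Lcp1 was 0.08 on the log2 scale, against 0.13 with it. Triobp, which bundles actin in the rootlets that anchor stereocilia, measured 254 ± 34.2 and was highest in mouse 2 (324), without which its SD fell to 0.13 against 0.19 on the log2 scale.

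The capping proteins and formins set the growth of filament ends. Capzb, a capping protein subunit, measured 4016 ± 347, with 4764 in mouse 1 and at most 4207 in the others. Eps8, a tip protein required for stereocilia length, measured 953 ± 80.1, with 787 in mouse 8 and at least 926 elsewhere. Twf2, twinfilin 2, ran from 124 (mouse 4) through a median of 159 to 200.2 (mouse 2). A brighter Twf2 probe set of the kind prone to cross-hybridization measured 1164 ± 243 and was not read. Diaph1, a formin mutated in human dominant deafness, ran from 1291 (mouse 3) through a median of 1537 to 2043 (mouse 1), and no other mouse exceeded 1578. Diaph3, a formin that also acts in cell division, exceeded background in mouse 4 alone (65), with a median of 23.8 and a lowest signal of 3.7 (mouse 8). Without mouse 1 the SDs of Diaph1 and Capzb were 0.11 and 0.07 on the log2 scale, against 0.20 and 0.12 with it. The SD of Eps8 was 0.07 without mouse 8, against 0.13.

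Of the class VI and XV myosins, Myo6 was bright and Myo15 was low. Myo6, the motor that walks toward the minus end of actin and anchors stereocilia at their base, is not restricted to hair cells. Its signals in mice 1 to 8 were 3788, 4180.2, 4759.9, 4544, 3977, 4440.5, 4329.8 and 4683. Myo15, the motor that carries tip proteins and is mutated in shaker 2 mice, gave 126, 111, 75.9, 104, 83.4, 128, 146 and 114 in the same order. Mouse 3 was highest for Myo6 and lowest for Myo15, but the second Myo6 probe set was near its lowest there (2222, against 2218 in mouse 4). Their correlation across mice did not pass (r = -0.21, rho = -0.29, adjusted exact permutation p = 0.946; n = 8; r = -0.62 without mice 1 and 5), and it changed sign without mouse 3 (0.171) and with all probe sets averaged (0.634). Myo15 and Espn gave r = 0.11 (rho = -0.05, adjusted exact permutation p = 0.946; r = -0.83 without mice 3 and 5). Leaving out mouse 3 or 5 alone turned the sign of that value, to -0.194 and -0.0331. The genes most like Myo6 in pattern, of 11781 detected genes over 8 arrays, were Rab6a (r = 0.99), Reep3 (0.98) and Prkar1a (0.98). These are the top values among many genes over few arrays, picked with no test, and they hold for the probe set read, to which the second Myo6 probe set ran at r = -0.69. Those most like Myo15 were Crtc1 (0.96), Fam193a (0.96) and Angptl6 (0.95). Those most like Lcp1 were Rsrc2 (0.95), Cxcl12 (0.94) and Foxc2 (0.94).

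The class I myosins link membrane to actin as single-headed motors. Myo1c, a motor studied for adaptation in hair cells, ran from 2289 (mouse 3) through a median of 2442 to 3761 (mouse 1). No other mouse exceeded 2829.8, and without mouse 1 its SD was 0.11 on the log2 scale, against 0.24. Myo1e, a motor of endocytosis and of kidney podocytes, measured 1168 ± 123. Myo1d measured 469 ± 55.7. Myo1h had the smallest spread of all detected members (SD 0.06 on the log2 scale), at 2779.9 ± 122. The annotated span of Myo1h overlaps that of the protein-coding gene Kctd10 in GRCm38.p6, and Kctd10 measured 2549.7 ± 319.9 (SD 0.18 on the log2 scale). Whether the Myo1h signal holds RNA of Kctd10 was not tested. Myo1f and Myo1g, myosins of blood cells, were near background. Myo1f ran from 23 (mouse 7) through a median of 40.0 to 62.2 (mouse 6), above the threshold on 2 arrays. Myo1g ran from 17.1 (mouse 8) through a median of 28.4 to 62.8 (mouse 6), above it on that array alone. Mouse 6 was thus highest for both with the probe sets read. The other Myo1f probe sets were highest in mouse 8 (51.9 and 12.0), with 28.3 and 1.2 in mouse 6. Over all mice the 14 macrophage and leukocyte markers measured, 13 of them detected, had summed signals of 8357 to 12282. Myo1a, a motor of intestinal microvilli, was at 32.2 ± 7.7.

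The class V myosins carry vesicles and organelles. Myo5a, which moves melanosomes and neuronal cargo, measured 3501 ± 382. Myo5c, the form of glandular epithelia, measured 1296 ± 135. Myo5b, the motor of recycling endosomes, ran from 242 (mouse 6) through a median of 338 to 455 (mouse 1). Myo10, which makes filopodia, measured 7731 ± 454. Myo9a (418 ± 25.6) and Myo9b (1245 ± 109) were both detected. Myo18a, a Golgi-associated myosin, ran from 404 (mouse 3) through a median of 568.5 to 634 (mouse 2). The 7 other mice lay at or above 530.1, and without mouse 3 its SD was 0.09 on the log2 scale, against 0.20. Myo19, which moves mitochondria, had the largest spread of any detected member, from 103 (mouse 6) through a median of 150.4 to 199 (mouse 1). The genes most like Myo19 were Dynll1 (r = 0.97), Cox4i1 (0.95) and Stk24 (0.95).

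The class III myosins, kinase motors that carry espins toward stereocilia tips, and some others stayed near background. Myo3b was steady at 68.2 ± 6.12 and exceeded the threshold in 7 mice, all but mouse 3 (53.9). Myo3a was at 17.4 ± 9.38. Myo16, a myosin of neurons, ran from 25.6 (mouse 6) through a median of 53.5 to 89.4 (mouse 4) and exceeded the threshold in 5 mice. Myo15b ran from 20.4 through a median of 29.5 to 59.1 (mouse 4), the array on which it exceeded the threshold. Myo18b, a myosin of striated muscle, was at 16.3 ± 8.69, and Myo7b, a myosin of intestinal and kidney microvilli, at 17.2 ± 13.9. A signal under this threshold does not show that the RNA is absent.

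The detected members varied between mice about as much as other genes or slightly less. Their median SD on the log2 scale was 0.15 (0.15 for myosins, 0.16 for actin genes), against 0.18 over all 11811 detected genes, and 11 of 30 lay above that value. With arrays scaled to the same median, the values were 0.178 for members and 0.181 for all detected genes. No detected member had an SD over 0.5, against 3.01% of all detected genes, a share that amounts to about 1 gene in 30. The largest SDs were those of Myo19 (0.35), Myo15 (0.32), Fscn2 (0.31), Myo5b (0.28) and Espn (0.26). With all probe sets of a gene averaged, the SD of Myo19 was 0.64, and those of Myo5c, Myo9b and Ezr were 0.69, 0.45 and 0.41, against 0.15, 0.12 and 0.23. These averages include probe sets above the threshold on no array. Their mean signals were 16.1 (Myo19), 6.1 (Myo5c), 27.1 and 15.1 (Myo9b) and 32.5 (Ezr). In that setting Myo19, Myo5c and Myo9b were not detected. Over the 30 members the mean signal and the SD were related at Spearman's rho = -0.59, a description across genes that share the same 8 arrays. Mouse 1 was highest for 6 and lowest for 7 of the 30, while 33.4% of all detected genes were highest and 23.9% lowest in mouse 1. Of the 15 brighter detected members, the median deviation from the gene's mean was 0.10 in mouse 3 and -0.10 in mouse 1 on the log2 scale, against 0.02 and 0.02 over 3467 genes at least as bright. These were the highest and the lowest of the members' values over the mice, and they hold for the probe sets read.

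**Figure D3:**
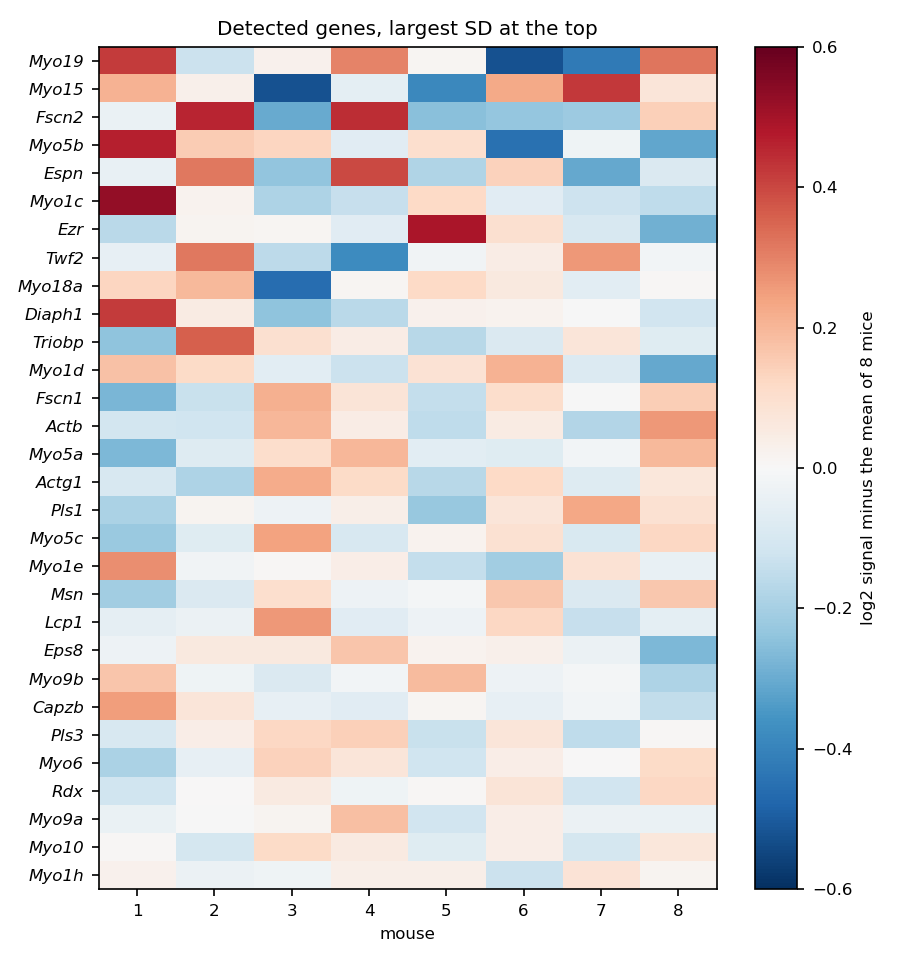
Deviation of log2 signal from the mean of 8 mice for the 30 detected members, 1 column per mouse, ordered by SD from Myo19 (0.35) at the top to Myo1h (0.06) at the bottom. Dark cells include those of Myo1c and Diaph1 in mouse 1, Ezr in mouse 5, Myo18a and Myo15 in mouse 3 and Myo19 in mouse 6.

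For 15 detected members a second detected probe set allowed a check of whether differences between mice were measured alike. The correlation of the brightest pair of probe sets, tested by exact permutation and adjusted over 5192 genes, passed in 1 of the 15, against 6.57% of those genes. That member was Myo1c (r = 0.97, exact permutation p = 0.000248, adjusted p = 0.0192; n = 8), whose 2 brightest probe sets were both highest in mouse 1, at 3761 and 1305. Its 2 dimmer detected probe sets were highest in mouse 1 (153.8) and in mouse 5 (241, against 232.6 in mouse 1). The call was lost under median scaling (adjusted permutation p = 0.074) and without mouse 1, 2, 5, 6, 7 or 8 (adjusted p of 0.0515 to 0.181). Without mouse 1 the correlation was 0.82. Capzb gave r = 0.91 with an adjusted exact permutation p of 0.0720. In 5 of the 15 members the correlation lay below 0, against 30.3% of all genes tested, and the median r was 0.50, against 0.33. The lowest were those of Myo1d (r = -0.71, exact permutation p = 0.0464, adjusted p = 0.187) and Myo6 (r = -0.69, exact permutation p = 0.0637, adjusted p = 0.224). In mouse 1 the Myo6 probe set that was read had its lowest signal (3788) and the second its highest (2479). Under median scaling the Myo6 correlation was 0.0837.

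**Figure D4:**
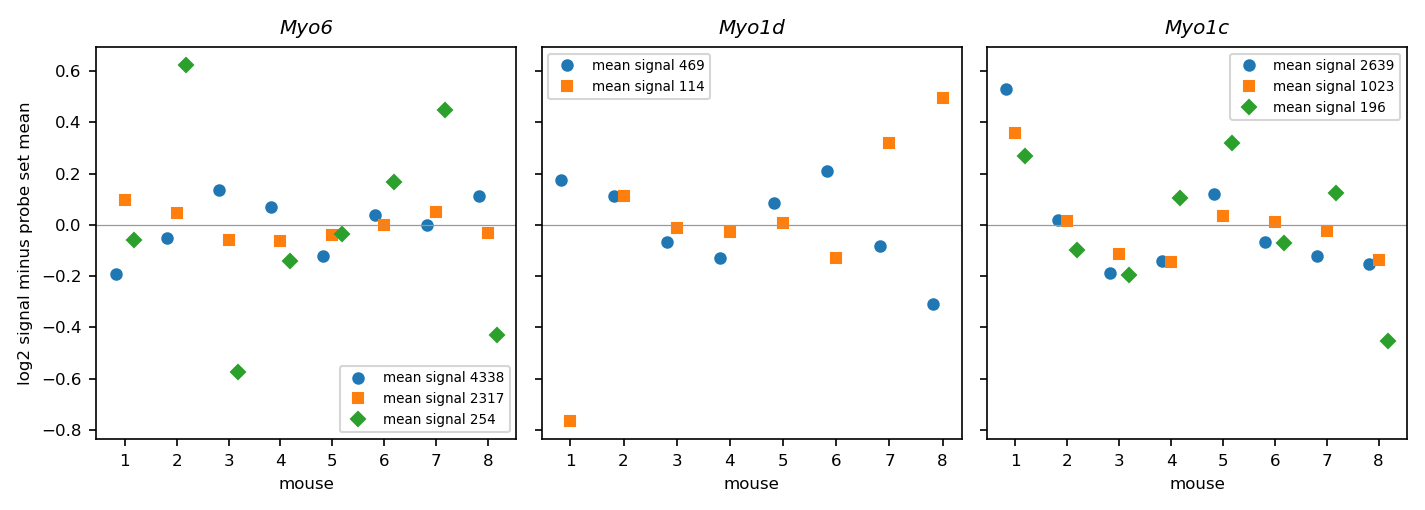
Deviation of log2 signal from each probe set's own mean, by mouse, for the detected probe sets of Myo6, Myo1d and Myo1c (up to 3 each, marked by mean signal). The 2 brightest Myo1c probe sets are both highest in mouse 1, while those of Myo6 and Myo1d lie on opposite sides of 0 there.

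Each detected member was set against the score of 14 cell type marker lists, the mean deviation of each list's own detected genes, and 0 of 420 pairs passed. The lowest adjusted exact permutation p was 0.694 for Pearson's r and 0.718 for Spearman's rho. Of the 420 pairs 20 had an unadjusted p under 0.05, a share no larger than that threshold gives by chance. The pairs named here were picked from those 20. The largest value was that of Pls1 with the hair cell list (r = 0.91, rho = 0.83, exact permutation p = 0.00206, adjusted p = 0.694; n = 8; r = 0.76 without mice 5 and 7). Pls1 and the list's score were both lowest in mouse 5 and highest in mouse 7, but the pair did not pass after adjustment. Lcp1 gave r = 0.80 with proliferation genes (exact permutation p = 0.00469, rho = 0.83, adjusted p = 0.694; 0.76 without mice 1 and 7). With macrophage and leukocyte genes Lcp1 gave r = 0.73 (exact permutation p = 0.0157, rho = 0.83, adjusted p = 0.694; 0.87 without mice 3 and 5). Rdx gave r = 0.84 with neutrophil and myeloid precursor genes (exact permutation p = 0.00603, rho = 0.81, adjusted p = 0.694; 0.56 without mice 1 and 7), a list whose summed signal ranged from 1942 to 29817. Myo19 gave r = 0.80 with neuron genes (exact permutation p = 0.00799, rho = 0.64, adjusted p = 0.694; 0.50 without mice 1 and 6), whose summed signal ranged from 15170.5 to 39618.5. Ezr gave r = 0.75 with osteoblast genes (exact permutation p = 0.0140, rho = 0.88, adjusted p = 0.694; 0.94 without mice 3 and 6), whose summed signal ranged from 5165 to 11609. The part of these cell types in the spread of Rdx, Myo19 and Ezr was not tested.

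Genes related to the members by function or family were followed in 4 further lists. Beside their counts stands the share of all genes detected, 64.9%, and 8 of 11 and 4 of 7 lie near it. Listed genes without a probe set naming them alone were left out. Among the hair bundle partners these were Ush1g, Grxcr1, Grxcr2, Ptprq, Espnl, Xirp2 and Loxhd1. Of 11 hair bundle partners 8 were detected, with Gnai3 (2876 ± 211), a G protein that positions the bundle, Eps8l2 (1139 ± 124), a relative of Eps8, and Clic5 (1028 ± 90.1), a partner of radixin, the brightest. Strc, stereocilin, which links stereocilia tops, varied most, from 103 (mouse 5) to 199 (mouse 7). Whrn, whirlin, the tip cargo of Myo15, measured 41.3 ± 4.76 and was not detected, nor were Fscn3 (23.7 ± 6.35) and Cdh23 (16.7 ± 8.22), a tip link cadherin. All 11 myosin adaptors and light chains were detected, led by the light chains Myl12b (9874 ± 760.2) and Myl12a (6682 ± 736) and by Calml4 (4921 ± 605). Rab27a, which couples Myo5a to melanosomes, was at 309.9 in mouse 3, while the 7 other mice spanned 992 to 1091, and Myo5a in mouse 3 (3742) lay inside the range of the others. Of 32 actin regulators 30 were detected, led by the monomer binders Tmsb4x (12817 ± 1066) and Pfn2 (8675 ± 744) and by the severing protein Dstn (6417 ± 473). Pfn1, profilin 1, varied most, with 1902 in mouse 6 and 940.1 to 1432 elsewhere. Fmnl1, a leukocyte formin (59.4 ± 14), and Vil1, villin (39.3 ± 11), were not detected. Of 7 conventional myosins and other actins 4 were detected, among them Myh9 (6470.2 ± 463), Myh10 (2192 ± 209) and the smooth muscle actin Acta2 (726 ± 159.8), the most variable.

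Promoter windows were matched for 32 members. The count of CpG, read on the window with the most CpG where a gene had several, had a median of 20 over 24 detected members and of 6 over 8 members that were not detected. Over all genes the medians were 22 (9544 detected genes) and 6 (4824 others). At least 10 CpG were found in 87.5% of detected members and 37.5% of the others, against 86.3% and 37.7% of all genes. Exceptions among the detected members were Myo15, whose window held 1 CpG, Myo18a with 5 and Pls3 with 6. Of the 8 others 3 had at least 10 CpG, namely Myo16 (23) and Diaph3 (18), above background on some arrays only, and Myo3a (16), above it on none. A CpG count is a description of these letters and draws nothing about regulation.

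**Figure D5:**
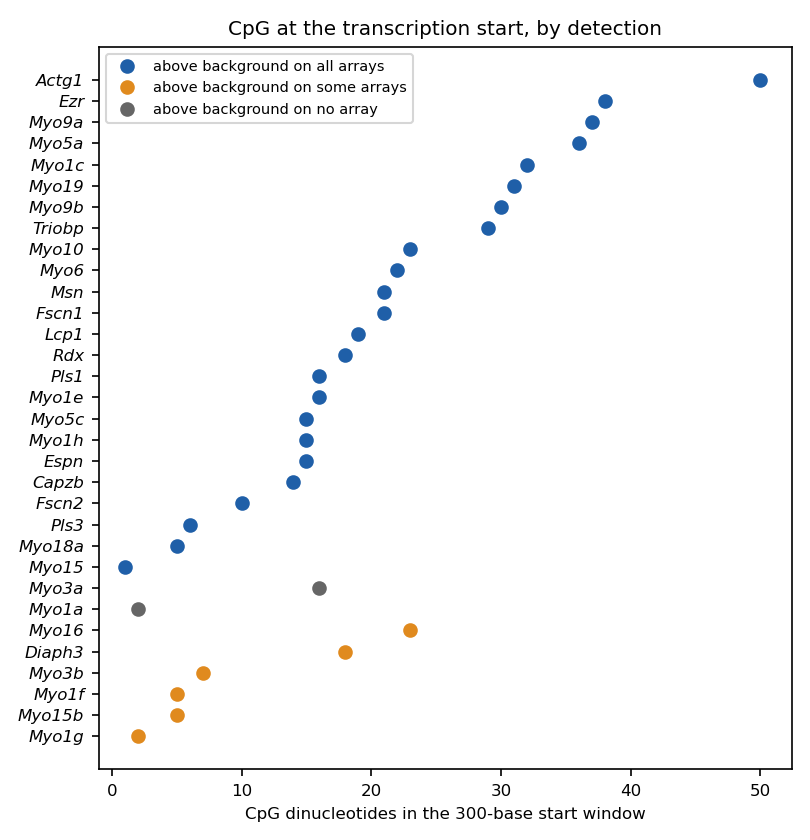
CpG dinucleotides in the 300-base start window of 32 members, with colour for whether the gene was above background on all, some or no arrays. Detected members span 1 (Myo15) to 50 (Actg1), and the 8 others span 2 to 23.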

How the data were processed

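Total RNA was amplified, labelled with biotin and hybridized to Affymetrix Mouse Genome 430 2.0 arrays, 1 per mouse, per the labels' protocols. The authors deposited linear intensity values per probe set, which the submitters' processing notes credit to MAS5 (version not given in the sources used). Every array's trimmed mean (lowest and highest 2% left out) was 500.002, so the deposited intensity values had been scaled to 500. Members and gene lists were chosen with earlier results of these data known. The annotation gave 1 gene for 34958 of 45101 probe sets, several for 932 and none for 9211, and only the first kind was read. The probe set of highest mean signal stood for its gene (an _x_at probe set only for want of another), and log2 was taken after raising signals below 1 to 1. Probe sets of the _s_at kind were not set aside. They gave the values of Actg1, Eps8, Myo1c, Myo1d and Myo1f, and whether they also take up other RNA was not tested. Control probe sets gave no gene value; their Actb ratio of 3′ to 5′ signal was 2.06 ± 0.144 (SD, n = 8). Correlations were tested two-sided by exact permutation over all 40320 pairings and adjusted by Benjamini-Hochberg in each family at 0.05. List scores needed 3 detected genes found in no other list. Named genes were all members and, of other genes, the 3 most like Lcp1, Myo6, Myo19 and Myo15, and of each partner list the 3 brightest, the most variable and up to 4 not detected. Mice are the units, and differences between arrays include those of the assay. The tests were checked on simulated data. Alternatives were quantile normalization, median scaling, log2 of the signal plus 32, averaging all probe sets, other thresholds and leaving out each array. The software was Python 3.11.15 with scipy 1.17.1, pandas 2.3.3, matplotlib 3.10.9 and numpy 2.4.6. The sources name no genome build for the array values, so coordinates are given only for RefSeq promoter windows.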

Additional observations from a re-analysis of the deposited data

Results flagged for a closer look

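Of the 30 detected members 4 had an array whose gap to its nearest neighbour was over Dixon's critical value for 8 samples. Chance gives about 1 in 20, but 12.5% of all 11811 detected genes met this, so the members' count is near that share. Diaph1 was highest in mouse 1 (2042.7), as was Myo1c (3761.0). Eps8 was lowest in mouse 8 (786.6) and Myo18a lowest in mouse 3 (404.2). The partner gene Rab27a was lowest in mouse 3 (309.9), and it was named for its large spread, so this restates the choice. The second probe sets of Myo1c (1305) and Diaph1 (114.3, next 109) were also highest in mouse 1, although those of Diaph1 correlated over the 8 mice at r = 0.50 (adjusted exact permutation p = 0.447). The second probe set of Eps8 was lowest in mouse 1 (332) and lay inside its range in mouse 8 (437).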

How the results depend on the processing

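The count of 30 detected members moved to 31 with the background at the 90th percentile (Myo3b gained), 32 with 4 of 8 arrays (Myo16 and Myo3b gained), 27 with all probe sets averaged (Myo19, Myo5c and Myo9b lost) and 26 at the 99th percentile (Espn, Fscn2, Myo15 and Myo19 lost). It was 30 to 31 with 1 array left out. Under median scaling the median SD of detected members was 0.178 (0.181 over all detected genes) and no probe set pair of a member passed, against 0.155 and 1; leaving out 1 array gave 0.136 to 0.163. Under that scaling the correlation of the Myo6 probe sets was 0.0837 in place of -0.69. The count of passing member pairs was 0 under quantile normalization and 0 with all probe sets averaged, where Myo6 and Myo15 gave r = 0.634. With 1 array left out, it was 0 to 1, the count of passing probe set pairs 0 to 1 and that of members with an SD over 0.5 was 0. Myo6 and Myo15 then ranged from -0.529 to 0.171 and Myo15 and Espn from -0.194 to 0.4996, with 0.171 and -0.194 without mouse 3 and -0.0331 without mouse 5. With a threshold on at least 4 of 8 arrays 1 member, Myo16, had an SD over 0.5. The count of score pairs was 0 under every alternative run. With the most upstream window, an alternative chosen after seeing the data, the median CpG count of detected members was 16 and of the others 6. Over all genes these medians were 21 and 6. At least 10 CpG were then found in 75% of detected members and 37.5% of the others, against 83.1% and 35.9% of all genes. Averaging drew in probe sets that were not themselves detected. The second Msn probe set had a mean signal of 52.6 and was above the threshold on 5 arrays. Those added for Myo19, Myo5c and Myo9b were above it on no array. Where averaging all probe sets ended a call, the part of such probe sets was not tested. No paired analysis was possible because the 8 arrays form 1 group. Signals near the threshold limit what can be said of Espn, Fscn2, Myo15 and the members that were not detected.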

Other observations

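The striated muscle actins Acta1 and Actc1, which are no members, had their highest signals in mouse 5. Acta1, the actin of skeletal muscle, was at 822 in mouse 5, while the 7 other mice spanned 2 to 29. Actc1, the actin of heart muscle, measured 139 in mouse 5 and 3.3 to 45 elsewhere. Myo18b, the myosin of striated muscle among the members, measured 10.7 in mouse 5, inside its range of 3.5 to 28.9. The summed signal of 10 skeletal muscle markers, Acta1 among them, ranged from 326 to 13196. Because this sum holds Acta1, it is no separate measure, and the source of the Acta1 values was not tested.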
